A study of Mus musculus with 2 samples.

Results

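The genes described here are 9 genes of the blood-brain barrier: the junction genes Cldn5 and Ocln, the carrier genes Slc2a1, Mfsd2a, Slco1c1, Slc16a1 and Slc7a5, and the efflux pump genes Abcb1a and Abcg2. They were chosen by name from a table of 43437 genes and a table of 103615 isoforms, where 8 of the 9 names were found, on 8 gene rows and 31 isoform rows. Slc7a5 was not analysed here. RNA-seq was made from untreated wild-type mouse fetuses of the ICR strain, an outbred stock, at E12.5. The study had a library from the whole body and a library from the telencephalon, the front part of the embryonic brain, and it set out to find long non-coding RNAs that differ between them. With 1 library for each tissue there is no replicate error, so no p-value is given and every difference describes these 2 libraries. The labels do not give the number or the sex of the fetuses, nor whether the head was part of the whole body.

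Endothelial cells of brain vessels differ from those of most other organs in having continuous tight junctions, few vesicles for transport across the cell, and a dense set of carriers and pumps. Vessels grow into the mouse telencephalon before the stage sampled here, and Wnt ligands made by the neural tube are known to induce barrier properties in them. Several of the genes are not restricted to vessels: the glucose carrier Slc2a1, the lactate carrier Slc16a1 and the pump Abcg2 are known from red cell precursors and other tissues, and Ocln is a gene of epithelia as well.

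Levels are in FPKM, which divides the fragments of a transcript by its length and by the size of the library. The steps between low FPKM values of genes with a single isoform gave about 29400000 fragments for whole body and 22800000 for telencephalon, so that 1 fragment on a transcript of 2000 bases was worth 0.0203 and 0.0264 FPKM. All fragment numbers are estimates from these steps. A difference is the log2 ratio of FPKM + 1, telencephalon over whole body, and a fold is the plain ratio of FPKM. A gene counts as measured from 1 FPKM in either library and as higher or lower from 2-fold on the FPKM + 1 scale. The neural progenitor gene Sox1 stood at 40.6 FPKM in telencephalon against 1.83 in whole body, and the liver gene Afp at 1.03 and 843. Both matched the tissue labels.

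All 8 genes matched a promoter window in the RefSeq table (GRCm38.p6), with 11 windows in all. The 6 windows shown include those of the gene higher in telencephalon (Mfsd2a) and the junction gene at a similar level (Cldn5). The others are those of the gene with the lowest FPKM ratio (Slc16a1), the upstream start of Ocln, and the pair of Abcg2 starts that had fragments. The window of the downstream Ocln start is not shown, since most of it lies over the first exon of the isoform from the upstream start. Each is the stretch of up to 250 bases before the start site, read 5′ to 3′ on the gene's strand. Capitals mark any match, on either strand, to the GC box GGGCGG, the TATA box TATAAA, the ETS core CCGGAA, the GATA motif AGATAA, the TCF/LEF core CTTTGA, or another form of that core, CTTTGT.
Mfsd2a, chr4:122961189-122961438, minus strand: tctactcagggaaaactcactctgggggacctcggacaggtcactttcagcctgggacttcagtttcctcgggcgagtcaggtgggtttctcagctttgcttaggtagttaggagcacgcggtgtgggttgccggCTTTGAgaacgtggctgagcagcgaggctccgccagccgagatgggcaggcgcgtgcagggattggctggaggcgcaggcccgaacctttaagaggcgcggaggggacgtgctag
Cldn5, chr16:18776597-18776846, plus strand: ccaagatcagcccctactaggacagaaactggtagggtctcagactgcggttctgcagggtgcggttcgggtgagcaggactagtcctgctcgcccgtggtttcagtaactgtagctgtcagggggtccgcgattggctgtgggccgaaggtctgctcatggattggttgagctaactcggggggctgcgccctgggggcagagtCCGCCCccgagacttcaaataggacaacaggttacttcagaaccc
Slc16a1, chr3:104638414-104638663, plus strand: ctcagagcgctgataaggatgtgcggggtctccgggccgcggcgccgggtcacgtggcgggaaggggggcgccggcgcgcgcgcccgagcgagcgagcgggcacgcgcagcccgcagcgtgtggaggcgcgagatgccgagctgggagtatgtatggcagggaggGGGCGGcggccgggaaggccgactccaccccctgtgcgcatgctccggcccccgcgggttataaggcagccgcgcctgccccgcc
Ocln, upstream start, chr13:100552719-100552968, minus strand: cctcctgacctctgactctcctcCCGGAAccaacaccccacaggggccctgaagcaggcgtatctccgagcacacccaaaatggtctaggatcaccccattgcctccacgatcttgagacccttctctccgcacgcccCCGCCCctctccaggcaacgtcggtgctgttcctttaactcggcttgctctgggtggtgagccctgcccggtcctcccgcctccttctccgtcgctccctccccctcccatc
Abcg2, start at 58596672, chr6:58596422-58596670, plus strand: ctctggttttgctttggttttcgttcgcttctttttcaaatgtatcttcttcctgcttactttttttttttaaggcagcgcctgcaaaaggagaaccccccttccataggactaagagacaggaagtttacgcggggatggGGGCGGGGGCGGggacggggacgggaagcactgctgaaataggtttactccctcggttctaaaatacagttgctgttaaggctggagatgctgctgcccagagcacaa
Abcg2, start at 58640546, chr6:58640296-58640545, plus strand: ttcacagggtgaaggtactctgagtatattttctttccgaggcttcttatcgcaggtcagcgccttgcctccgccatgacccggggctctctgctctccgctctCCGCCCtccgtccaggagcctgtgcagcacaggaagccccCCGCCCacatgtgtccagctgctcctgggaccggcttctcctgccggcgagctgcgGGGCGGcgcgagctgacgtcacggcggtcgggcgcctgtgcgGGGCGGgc
The Mfsd2a window held a single match, CTTTGA at 115 to 110 bases before the start, and the Cldn5 window a single GC box at 45 to 40 bases before it. Slc16a1 held 1 GC box, the Abcg2 windows 2 and 4, and Ocln 1 GC box with 1 ETS core. Of 32851 windows of 250 bases in the table, 32.7% held the GC box, 12.4% the TATA box, 12.0% the ETS core, 9.99% the GATA motif, 13.8% the core CTTTGA and 16.5% its other form. That other form is also a core of Sox binding sites when read on the opposite strand. Of the printed windows Slc16a1 was the richest in G and C at 76.4%, against a median of 52.4% over all windows. A match describes the letters only.

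In these libraries 1 barrier gene was higher in telencephalon, 3 were lower and the others lay within 2-fold or below the floor. Mfsd2a stood at 22.0 FPKM in telencephalon against 6.56 in whole body. Slc2a1, Abcg2 and Slc16a1 were lower, and Cldn5 and Ocln were within 2-fold on the FPKM + 1 scale. Abcb1a and Slco1c1 stayed below 1 FPKM in both libraries and were not counted. Among all 14987 measured genes telencephalon was higher by 2-fold or more in 9.39% and lower in 21.2%, beside 1 and 3 of the 6 measured barrier genes. The median log2 ratio of those 6 was -1.04, and that of all measured genes -0.16. In order of level in whole body the genes ran Slc2a1, Abcg2, Cldn5, Slc16a1, Mfsd2a, Ocln, Slco1c1 and Abcb1a. In telencephalon Slc2a1 was again first, followed by Cldn5, Mfsd2a, Abcg2, Slc16a1, Ocln, Slco1c1 and Abcb1a. With 1 library each, the spread that would separate neighbours in these orders is unknown.

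**Figure D1:**
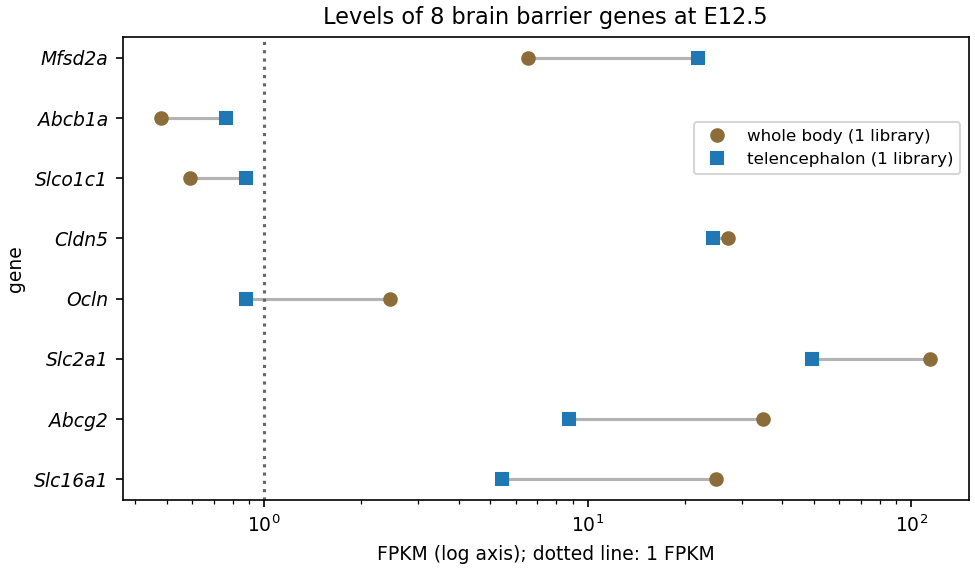
FPKM (log axis) of the 8 genes in the whole-body library (circles) and the telencephalon library (squares), ordered by log2 ratio, with a dotted line at 1 FPKM. Mfsd2a lies to the right in telencephalon (22.0 against 6.56 FPKM), the Cldn5 points nearly coincide (24.4 and 27.2), and Slc16a1, Abcg2 and Slc2a1 lie to the left.

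The junction genes differed from each other. Cldn5 encodes claudin-5, the main claudin of brain endothelial tight junctions, and has 1 exon of 1416 bases (chromosome 16, 18776847 to 18778262, plus strand). It stood at 27.2 FPKM in the whole-body library and 24.4 in telencephalon, from about 873 and 601 fragments. The levels were thus close, with a log2 ratio of -0.15 that became 0.011 after rescaling to TPM. The fragment ratio scaled by depth was 0.887, with an exact 95% binomial interval from 0.799 to 0.986 that covers counting error within these libraries only. Ocln encodes occludin, a membrane protein of tight junctions in endothelia and epithelia (chromosome 13, 100496507 to 100552718, minus strand). It stood at 2.46 FPKM in the whole-body library and 0.877 in telencephalon, from about 177 and 54 fragments. This is 2.80-fold lower in FPKM, yet the log2 ratio of FPKM + 1 was -0.88 and did not pass 2-fold, whereas a pseudocount of 0.1 FPKM gave -1.39.

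Of the carriers Mfsd2a was the one higher in telencephalon. It encodes a lysophospholipid carrier through which docosahexaenoic acid enters the brain, and which is also known to hold down vesicle transport in brain endothelium (chromosome 4, 122946850 to 122961188, minus strand). Some 909 fragments in telencephalon and 352 in whole body gave a depth-scaled ratio of 3.33 (95% interval 2.94 to 3.78), beside a fold of 3.35 in FPKM. Its log2 ratio of 1.61 was above that of 95.9% of the measured genes. A non-coding gene on the other strand, 4933421A08Rik, has an exon within the printed window and rested on about 4 and 5 fragments in whole body and telencephalon.

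Slc2a1 and Slc16a1, which carry glucose and monocarboxylates such as lactate, were lower in telencephalon. Slc2a1 (chromosome 4, 119108711 to 119137983, plus strand) encodes GLUT1 and was the most abundant of the genes in both libraries. It stood at 114.6 FPKM in the whole-body library and 49.6 in telencephalon, a fold of 2.31 and a log2 ratio of -1.19. Slc16a1 (chromosome 3, 104638668 to 104658462, plus strand) encodes MCT1. It stood at 25.0 FPKM in the whole-body library and 5.42 in telencephalon, from about 3015 and 505 fragments, 4.61-fold lower. The log2 ratio of -2.02 was the lowest of the measured barrier genes, and 8.05% of the measured genes were lower still. Slco1c1 (chromosome 6, 141524368 to 141570177, plus strand) encodes OATP1C1, a carrier of thyroxine. It stood at 0.592 FPKM in the whole-body library and 0.877 in telencephalon, on about 41 and 53 fragments. Its depth-scaled ratio was 1.67, with an interval from 1.09 to 2.57.

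The efflux pumps Abcg2 and Abcb1a both return small molecules to the blood at the mature barrier, and they differed in level. Abcg2 (chromosome 6, 58584523 to 58695676, plus strand) encodes the breast cancer resistance protein. It stood at 34.8 FPKM in the whole-body library and 8.79 in telencephalon, a fold of 3.96 and a log2 ratio of -1.87. Abcb1a (chromosome 5, 8660077 to 8748575, plus strand) encodes P-glycoprotein, a defining pump of the mature barrier. It stood at 0.481 FPKM in the whole-body library and 0.761 in telencephalon, on about 66 and 58 fragments. The depth-scaled fragment ratio of Abcb1a was 1.13 with an interval from 0.783 to 1.64, so a difference was not detectable at this depth. Abcb1a also shares 889 of its 5459 stretches of 50 bases with its paralog Abcb1b, so the authors' counting could divide reads between the 2 genes. In addition 553 of its 5480 exon bases overlap exons of Gm42686 on the other strand. Strand is not kept by the kit used, so reads there cannot be assigned to 1 of them, and Gm42686 was not analysed here.

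The FPKM ratio lay within the fragment interval for every gene but Abcg2. For Abcb1a the FPKM ratio was 1.58 and the fragment ratio 1.13, with a wide interval (0.783 to 1.64). The 2556 fragments of whole body and 353 of telencephalon made Abcg2 5.61-fold lower once scaled by depth. The interval from 5.02 to 6.29 leaves out the FPKM fold of 3.96. By fragments Slc16a1 was 4.63-fold lower, so the gene with the lowest ratio depends on the measure. An Abcg2 isoform of 348 bases held 7.25 FPKM in whole body (20.8% of the gene) and 2.72 in telencephalon, on about 6 fragments and 1 fragment. By the same steps its effective length, over which FPKM divides, was 29.3 bases in whole body and 15.7 in telencephalon. Without isoforms under 400 bases Abcg2 stood at 27.6 and 6.07 FPKM, 4.55-fold lower, with a log2 ratio of -2.02.

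**Figure D2:**
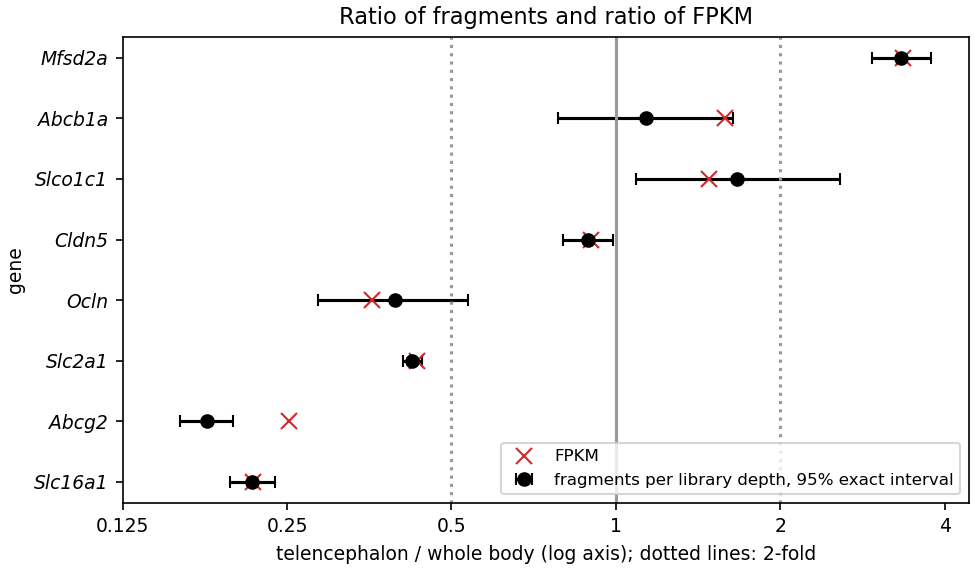
Ratio of telencephalon to whole body (log axis) for each gene, as fragments scaled by library depth (black points, with exact 95% binomial intervals for counting error) and as FPKM (red crosses). The measures nearly coincide for Mfsd2a (3.33 and 3.35) and Slc16a1, while the FPKM cross of Abcg2 lies outside its interval.

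The isoforms of Ocln divided differently in the libraries. Ocln-201, Ocln-202 and Ocln-205 have the same coding exons and differ in the first exon and in the 3′ end. Ocln-201 begins at the upstream RefSeq start (position 100552718), and the others within 50 bases of the downstream start (100552498). Isoforms of the upstream start stood at 0.549 FPKM in the whole-body library and 0.733 in telencephalon, on about 41 and 42 fragments. Those of the downstream start stood at 1.91 and 0.145 FPKM, on about 136 and 12 fragments. The downstream start thus held 77.6% of the Ocln level in whole body and 16.5% in telencephalon. Scaled by depth, fragments of the downstream start were 8.79-fold lower (interval 4.87 to 17.4), while the ratio for the upstream start was 1.32 (0.838 to 2.08). Most of the whole-body level came from Ocln-205, which was at 1.53 FPKM there and had no fragment in telencephalon by this estimate. Epithelial marker genes, which occur in tissues where Ocln is also known, summed to 136 FPKM in the whole-body library and 1.48 in telencephalon, and their part in this difference was not tested. The division of reads among isoforms is the authors' estimate, and the intervals do not cover its error.

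In Slco1c1 and Abcb1a, isoforms without a full coding frame held most of the gene's FPKM in 1 of the libraries. The coding isoform of Slco1c1 had no fragment in whole body by this estimate and about 35 in telencephalon (0.544 FPKM). The other isoform is annotated as a target of nonsense-mediated decay and stood at 0.592 FPKM in the whole-body library and 0.333 in telencephalon. The coding isoform Abcb1a-201 stood at 0.481 FPKM in the whole-body library and 0.325 in telencephalon, on about 66 and 35 fragments, the opposite order to the gene. A transcript with a retained intron, Abcb1a-202, held 57.3% of the gene's FPKM in telencephalon on about 23 fragments. These were fewer than the 35 of the coding isoform, which is longer.

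Of the abundant genes Slc2a1 kept 1 main isoform. Its longest coding isoform held 97.7% of the level in whole body and 93.1% in telencephalon, and an isoform marked for decay stood at 2.35 and 3.41 FPKM. Mfsd2a-201 held 98.9% and 99.6% of Mfsd2a. For Abcg2, fragments of the isoform from the start at 58596672 were 5.68-fold lower in telencephalon (interval 4.94 to 6.55) and those from the start at 58640546 were 5.46-fold lower (4.52 to 6.63). The intervals of these starts overlap. The isoform from the third RefSeq start of Abcg2 had no fragment in either library.

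**Figure D3:**
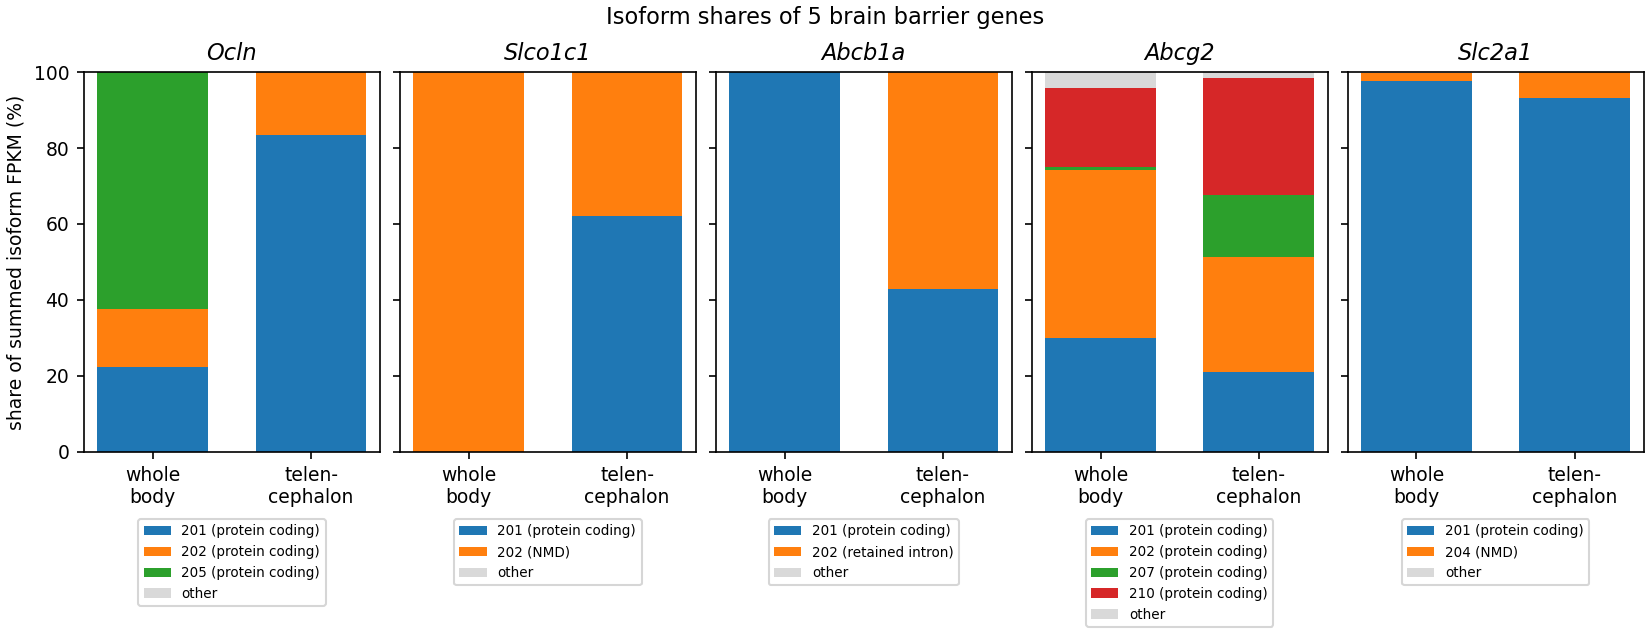
Share of each isoform in the summed isoform FPKM (percent) of 5 genes in both libraries, with isoforms under 3% in both drawn as other. Ocln-205 fills 62.4% of the whole-body bar and is absent from the telencephalon bar, and Abcb1a-202 fills 57.3% of the telencephalon bar only.

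Genes that endothelial cells share in all organs were lower in telencephalon. Of 20 pan-endothelial genes 17 were past 2-fold lower, with none past it in the other direction (median log2 ratio -1.49). Pecam1, an adhesion molecule of endothelial junctions, stood at 18.5 FPKM in the whole-body library and 5.97 in telencephalon. Cdh5, the cadherin of those junctions, stood at 35.3 and 7.15. On the FPKM + 1 scale the transcription factor gene Erg had the lowest log2 ratio (15.4 and 1.70 FPKM, on about 271 and 53 fragments). It was followed by Emcn, which encodes the membrane mucin endomucin (9.83 and 1.19 FPKM, on about 411 and 47 fragments). By fragments Emcn differed more than Erg, so the rank of Erg depends on the measure. The transcription factor gene Sox17 was the nearest to equal (4.62 and 2.79 FPKM). By plain FPKM the lowest ratio was that of Clec14a, which encodes an endothelial lectin (5.08 and 0.470). In bulk RNA, fewer cells of a type and less RNA per cell cannot be told apart.

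Cldn5 had a higher log2 ratio than all 20 pan-endothelial genes, and so had Mfsd2a, Abcb1a and Slco1c1, the latter pair at the low depth given above. Cldn5 stood at 1.47 times the FPKM of Pecam1 in whole body and 4.10 times in telencephalon. Against the geometric mean of the 20 genes, which was 14.0 and 3.68 FPKM, the ratio of Cldn5 was 1.95 and 6.65, a 3.42-fold difference. Over the single pan-endothelial genes that difference ran from 1.49-fold to 9.71-fold. For Mfsd2a the ratio to the geometric mean was 0.469 in whole body and 5.99 in telencephalon, 12.7-fold apart, with a range of 5.55-fold to 36.2-fold over the single genes. Slc2a1 was 1.64-fold higher in telencephalon against the geometric mean, but its ratio ran from 0.716 to 4.67 over the single genes and was higher against 17 of the 20. Ocln was 1.36-fold higher, with a range of 0.591 to 3.86. Abcg2 stood at 2.49 and 2.39, and Slc16a1 at 1.79 and 1.47, and over the single genes their change ran from 0.418 to 2.73 and from 0.359 to 2.34. Which cells expressed the barrier genes, Mfsd2a included, was not tested, so these ratios are not levels per endothelial cell. The pan-endothelial genes nearest to Cldn5 in log2 ratio, over 2 libraries, were Sox17 (-0.57), Mmrn2 (-0.79) and Flt1 (-0.82).

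**Figure D4:**
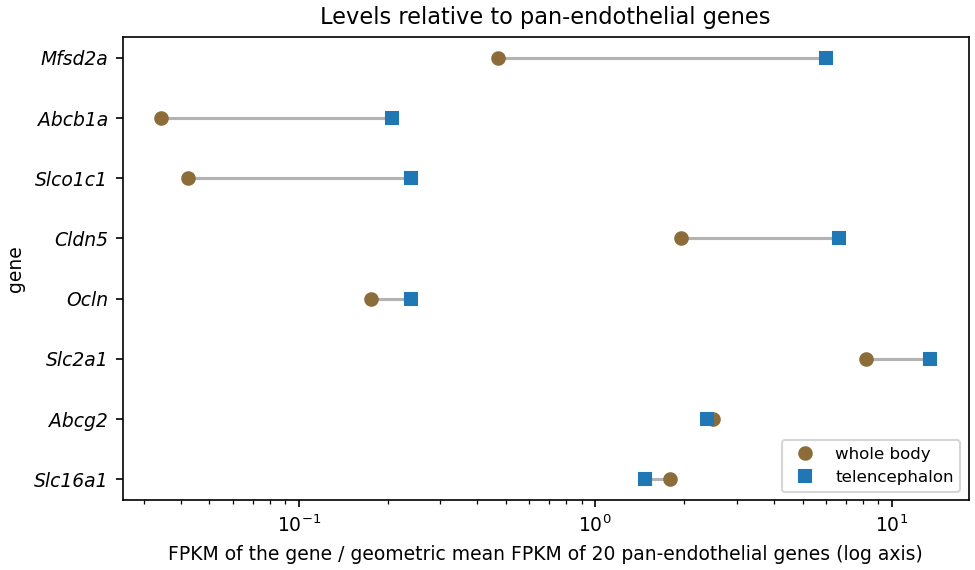
FPKM of each gene divided by the geometric mean FPKM of 20 pan-endothelial genes (log axis) in whole body (circles) and telencephalon (squares). Mfsd2a moves from 0.469 to 5.99 and Cldn5 from 1.95 to 6.65, whereas Abcg2 and Slc16a1 differ little between the libraries.

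Genes of permeable vessels and of caveolae, the membrane pits through which vesicles form, were lower in telencephalon in all 7 measured cases (median log2 ratio -2.72). Of all measured genes 21.2% were lower and 9.39% higher. Plvap, which encodes the diaphragm protein of fenestrated endothelium, stood at 40.5 FPKM in the whole-body library and 7.80 in telencephalon. The caveolar genes Cav1 (33.5 and 1.46 FPKM), Ptrf (32.6 and 3.57) and Cav2 (2.57 and 0.623) were lower as well. Muscle and connective tissue also express caveolar genes. Of 11 measured genes listed for pericytes, the mural cells that wrap brain capillaries, 6 were lower, 5 within 2-fold and none higher. Which cells expressed these genes in either library was not tested, so the counts are not a measure of pericytes. Anpep was 56.7-fold lower and Pdgfrb 7.79-fold, while Rgs5 stood at 3.41 and 2.67 FPKM and Higd1b was listed at 0 in both.

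The partners and paralogs of the barrier genes were mostly lower or within 2-fold. Slc3a2, the heavy chain that joins the product of Slc7a5 in the membrane, stood at 34.4 FPKM in the whole-body library and 31.3 in telencephalon. Bsg, the chaperone of MCT1, stood at 291 and 147. The neuronal glucose carrier gene Slc2a3 was 2.49-fold lower (20.5 and 8.22 FPKM), close to the fold of Slc2a1. The lactate carrier gene Slc16a3 was 8.79-fold lower (60.7 and 6.91), and Slc16a7 stood at 3.26 and 1.23. Mfsd2b, the closest paralog of Mfsd2a and a gene of red cells, was 12.7-fold lower in telencephalon (26.5 and 2.09 FPKM), the opposite direction to Mfsd2a. Slc7a8, a paralog of Slc7a5, stood at 5.95 and 2.51, and Abcg1 at 6.46 and 8.42. Abcb1b stood at 0.271 and 0.230 FPKM, and the organic anion carrier gene Slco1a4 at 0.117 in whole body, on about 6 fragments, and listed at 0 in telencephalon. Cldn11 was 42.7-fold lower, Cldn3 10.6-fold and Marveld2, which encodes tricellulin, 3.76-fold.

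Other genes of tight junctions included 1 that was higher and 6 that were lower among 13 measured (median log2 ratio -0.81). Jam2, a junctional adhesion molecule gene, stood at 12.9 FPKM in telencephalon against 4.73 in whole body, 2.72-fold higher. Cldn1 was 29.2-fold lower and Cldn3 10.6-fold lower, and both are claudins of epithelia. Of 25 measured carriers, pumps and receptors known from the barrier, 1 was higher, 5 lower and 19 within 2-fold (median -0.25). The shares over all measured genes were 9.39% higher and 21.2% lower, so the lower count was near the general share. Lrp8, a reelin receptor gene that neurons also express, was the higher 1 of the 25, at 43.9 FPKM in telencephalon against 14.4 in whole body. The iron exporter gene Slc40a1 was 11.5-fold lower in telencephalon. Tfrc, the transferrin receptor gene of brain endothelium and of red cell precursors, was 5.43-fold lower (11.8 FPKM in telencephalon, 64.3 in whole body).

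Among Wnt genes of barrier induction, ligands and co-receptors differed in direction. The ligand genes Wnt7a and Wnt7b, which neural progenitors make, were higher in telencephalon, at 28.9 against 2.02 FPKM and 62.3 against 13.9. The genes of their co-receptors on endothelium, Gpr124 (also called Adgra2) and Reck, were 19.3-fold and 12.3-fold lower, and mesenchymal cells are known to express both. Of the 20 genes of this list 2 were higher, 8 lower and 10 within 2-fold (median -0.76), beside 9.39% higher and 21.2% lower of all measured genes. Foxq1 and Foxf2, forkhead genes of brain vessels, stood at 2.73 and 6.28 FPKM in telencephalon and 1.39 and 11.7 in whole body.

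Marker genes of other cell types that express some of the barrier genes also differed between the libraries. All 11 erythroid genes were lower in telencephalon, with a summed level of 868 FPKM in the whole-body library and 21.7 in telencephalon and none listed at 0. Rhd was 137-fold lower and Slc4a1 59.7-fold, and Tfr2 was the least different (6.74 and 0.712 FPKM). The lower levels of Slc2a1, Slc16a1 and Abcg2 moved with these genes, and their part in the result was not tested. All 10 hepatoblast genes were lower, with sums of 2184 and 5.54 FPKM, and Apoa2 and Serpina1a were listed at 0 in telencephalon. All 11 epithelial genes were lower, with Krt14, Krt18 and Krt19 listed at 0 in telencephalon.

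Choroid plexus, which expresses Slco1c1 and Slc2a1 too, was represented by 6 measured genes, 4 of them lower and none higher. Ttr, which is also in the hepatoblast list, stood at 2.34 FPKM in telencephalon against 104 in whole body. Aqp1 stood at 0.211 FPKM in telencephalon against 34.5 in whole body, and Otx2 at 5.71 and 3.84. Which cells expressed these genes was not tested, so the counts are not a measure of choroid plexus. Of 7 measured macrophage genes 6 were lower, with sums of 10.7 FPKM in telencephalon against 102 in whole body. Neural genes went the other way. Of 10 neural progenitor genes 7 were higher and none lower (summed level 1781 against 1033 FPKM), and all 7 neuronal genes were higher (850 against 190). The higher level of Mfsd2a moved with these lists, and their part in it was not tested.

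**Figure D5:**
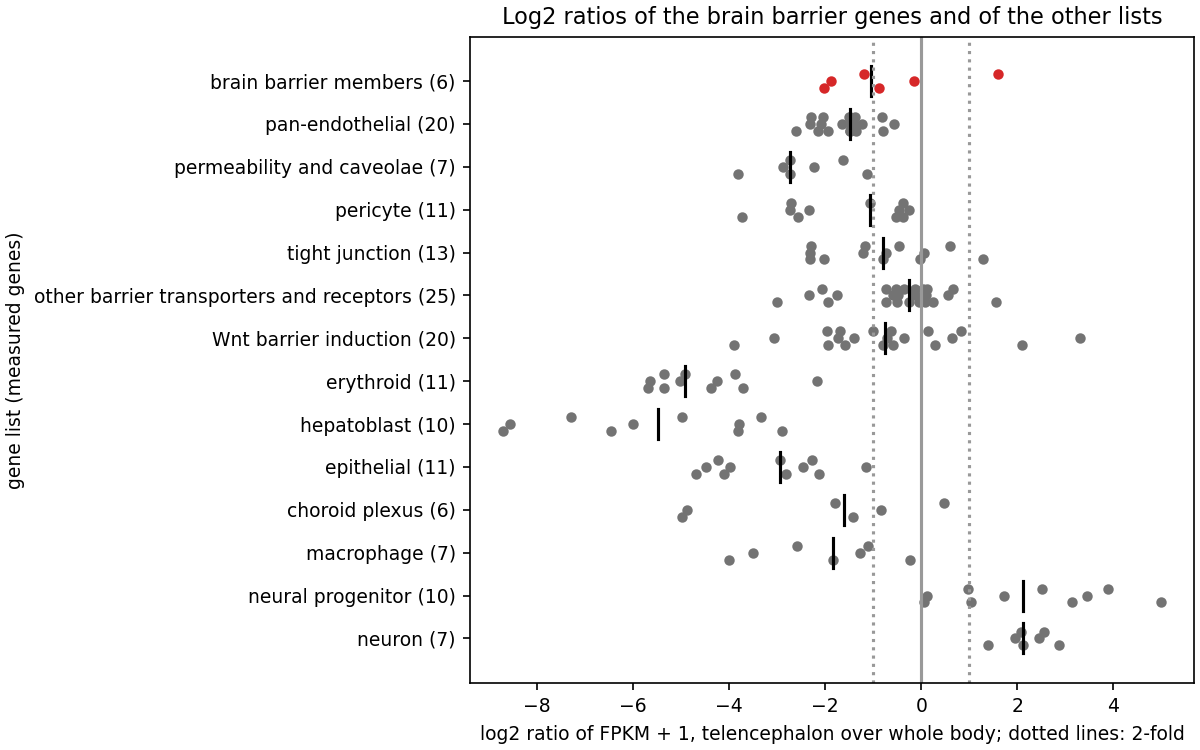
Log2 ratio of FPKM + 1 (telencephalon over whole body) of each measured gene, by list, with the median as a black bar and dotted lines at 2-fold. The barrier genes (red) run from -2.02 to 1.61, the 20 pan-endothelial genes lie below 0, and the neural lists lie above 0.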

How the data were processed

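The authors deposited FPKM per gene and per isoform, with a column for each library, and TopHat, Cufflinks and Cuffdiff with the GRCm38 genome were used per the submitters' processing notes, without versions. Total RNA was prepared with a TruSeq RNA v2 kit and sequenced on a HiSeq 2000, per the labels' protocols. For the annotation release, the sources used here name none. FPKM are not counts, and no count model was run.

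The rows were matched by gene symbol, and isoforms by Ensembl identifier to GENCODE M21 of the same build, which gave coordinates, types and lengths. Of 186 symbols in 15 lists 183 were found, 3 of them under older names, and the others are not analysed here. The members and the lists were chosen with earlier results of these data known. Depth was estimated from the 1-fragment steps of 401 and 441 genes with a single isoform of 1500 bases or more, with 322 and 336 bases subtracted from lengths. Of values of 1 to 20 fragments in single-isoform genes of 2000 bases or more, 91.1% and 89.5% came out whole within 0.1 fragments, including genes of the fit. Under 700 bases the step was read from genes within 15 bases of the same length. Intervals are exact binomial on fragments and cover counting error only. Isoforms were assigned to a RefSeq start within 50 bases. Printed windows end before the first exon base of an annotated protein-coding gene. The depth estimate and the 2-fold calls were checked on simulated data with a single transcript per gene and counting error only. That check does not cover the division of reads among isoforms, short isoforms or the spread between replicates.

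Named genes were all members, all partners and paralogs, Pecam1, Cdh5 and Plvap, the 3 pan-endothelial genes nearest to Cldn5, and from each list the 2 measured genes farthest in the direction of its median and the 1 farthest the other way. Some items are not reported here, those of the lists of other cell types are named only in part, and Clec14a, Wnt7b, Foxq1 and Foxf2 were added after their values were seen. Alternatives were other pseudocounts, floors, scalings and sets of isoforms. Python 3.11.15, pandas 2.3.3 and SciPy 1.17.1 were used.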

Additional observations from a re-analysis of the deposited data

How the results depend on the processing

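The counts of barrier genes past 2-fold were 1 higher and 3 lower under each alternative run, except 4 lower with a pseudocount of 0.1 FPKM, which adds Ocln. Over all settings the log2 ratio ran from 1.22 to 1.83 for Mfsd2a, -1.26 to -1.04 for Slc2a1, -2.02 to -1.53 for Abcg2, -2.19 to -1.53 for Slc16a1 and -1.39 to -0.34 for Ocln. Cldn5 changed sign to 0.011 in TPM, and Abcb1a to -0.16 with coding isoforms only, a setting chosen after seeing the data, as was leaving out isoforms under 400 bases. Genes at least 2-fold higher numbered 800 with a pseudocount of 5 FPKM and 2126 in TPM, where the floor of 1 also admits more genes, against 1408. Genes at least 2-fold lower numbered 1490 with a pseudocount of 5 FPKM and 2065 with a floor of 5 FPKM, against 3170. That floor also leaves fewer measured genes, 10909 against 14987. The pan-endothelial median was -1.67 and -1.10 with pseudocounts of 0.1 and 5 FPKM and -1.38 with a common upper quartile. The last of these scalings moved the median of all measured genes from -0.16 to -0.04, and TPM to -0.02. Depth limits Abcb1a and Slco1c1, which rest on 41 to 66 fragments a library. No paired analysis was possible because each group has 1 library, and for the same reason no replicate could be left out.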

Other observations

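The neighbours of the barrier genes differed in direction from them in part. Of the 16 measured protein-coding genes nearest on each side in the table, 4 were higher in telencephalon by 2-fold or more and 4 lower. Over all measured genes the shares were 9.39% higher and 21.2% lower. The lower count was thus near the general share, while the higher count, 4 of 16, was above it, without a test. Mycl, a Myc family transcription factor gene 34464 bases from Mfsd2a, stood at 44.7 FPKM in telencephalon against 15.6 in whole body, 2.87-fold higher beside 3.35-fold for Mfsd2a. Cap1, on the other side of Mfsd2a, stood at 71.0 and 77.2 FPKM. Ocln lies next to Marveld2, which encodes tricellulin, another tight junction protein, and both were lower in telencephalon in FPKM (2.80-fold and 3.76-fold). Abcb4, a phospholipid pump gene of liver and the nearest measured gene beyond Abcb1a, was 18.6-fold lower (0.270 and 5.04 FPKM), while Abcb1a stood at 0.761 and 0.481. These genes were singled out after their values were seen.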
